A study of Mus musculus with 3 samples.

Results

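The p53 pathway was examined through 10 genes, taken as the rows that carry the symbols Trp53, Mdm2, Mdm4, Ccng1, Sesn2, Zmat3, Phlda3, Trp53inp1, Eda2r and Gadd45a. All 10 were found among the 28074 gene symbols of the table. RNA sequencing had been done on leukemic cells from the spleens of 3 moribund mice, which form 1 group. The mice lacked miR-196b (miR196b-/-), a microRNA of the Hoxa cluster, and carried floxed Dnmt3a alleles, Flt3ITD/ITD and the Mx1Cre transgene. Dnmt3a is a DNA methyltransferase, Flt3-ITD is a receptor tyrosine kinase with an internal tandem duplication, and Mx1-Cre is a recombinase under an interferon-inducible promoter that acts in blood cells and in other tissues too. The titles write the Dnmt3a genotype as +/- and the genotype field as fl/fl. Cells with surface c-Kit, a receptor of immature blood cells, were enriched on magnetic beads before RNA extraction. The study set these acute myeloid leukemias (AML) against leukemias with miR-196b. Those control leukemias come from a different series and are not analysed here. The values describe the knockout leukemias, and no effect of the deletion was tested.

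Trp53 encodes p53, a transcription factor that is stabilized by DNA damage and oncogene activity and then switches on genes for cell cycle arrest, DNA repair, metabolic control and apoptosis. Its activity is held down by Mdm2, a ubiquitin ligase that marks p53 for degradation and is itself a p53 target, and by Mdm4, a related protein that masks the activation domain of p53. The level of p53 protein is set mainly after translation, so target transcripts rather than the Trp53 transcript are commonly read as its output, and in AML the pathway is known for being disabled in a minority of cases with a poor outcome.

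The deleted microRNA is shown first, because many, though not all, direct targets of a microRNA carry a match to its seed in the 3′ UTR. RefSeq places mature miR-196b-5p at chr6:52230129-52230150 of GRCm38.p6, minus strand. The seed, bases 2 to 8, is in capitals, and miR-196a-5p, made from other loci, has the same seed.

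mmu-miR-196b-5p: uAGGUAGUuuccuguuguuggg

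mmu-miR-196a-5p: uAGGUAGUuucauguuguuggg

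The match searched was ACTACCT, on the transcript strand only, in the longest annotated 3′ UTR of each gene in GENCODE M21 (GRCm38, the build that mm10 names). Its last 6 letters are shared with the match of let-7, CTACCTC, so the motifs can overlap. None of the 10 genes held ACTACCT (0 of 10), while 6.10% of 21020 genes with an annotated 3′ UTR did. The 3′ UTRs searched ran from 563 bases in Gadd45a to 6692 bases in Zmat3. Among 3′ UTRs within 20% of the length of the Zmat3 3′ UTR, 22.7% held the match, and among those within 20% of the Gadd45a length 2.47% did. Known targets of miR-196 searched in the same way held 4 matches (Hoxa7), 1 (Hoxa9), 2 (Hoxc8) and 0 (Hoxb8), so the search misses at least 1 known target. The first Hoxa7 match, at chr6:52215393-52215422 on the minus strand, is printed with the match in capitals.

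Hoxa7 3′ UTR site: aggcacagccaaaatACTACCTagcacagg

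A match is a description of letters and no evidence of regulation, and its lack says only that these letters were not in the annotated 3′ UTRs.

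Promoters were searched for the p53 response element, which is built from a pair of 10-letter sites. RefSeq windows of 300 bases, 250 before and 50 after the start, were at hand for 8 of the 10 genes, and Zmat3 and Trp53inp1 had none. A complete pair, with a spacer of at most 13 bases and at most 2 mismatches over the pair, was found in 2 genes, Ccng1 and Gadd45a, against 4.09% of all 32851 promoter windows. The site reads the same on both strands in its letter code, so 1 search covers both. A single exact site was found in Ccng1, Gadd45a, Mdm2 and Trp53, 4 of the 8, against 8.36% of all windows. A single element each of Ccng1 and Gadd45a, that with the fewest mismatches or, at equal number, the first, and the single sites of the other genes are printed below with the matched letters in capitals, in the direction of transcription. The Ccng1 element had 1 mismatch and no spacer and began 195 bases before the start (chr11:40755447-40755496, minus strand). The Gadd45a element had 2 mismatches and a spacer of 11 bases (chr6:67037423-67037483, minus strand), and its second site was exact. Each of these windows also held a further, overlapping pair that shares the exact site and has 2 mismatches. The single sites of Mdm2 (chr10:117710920-117710959, minus strand) and Trp53 (chr11:69580269-69580308, plus strand) began 186 and 75 bases before their starts.

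Ccng1 promoter: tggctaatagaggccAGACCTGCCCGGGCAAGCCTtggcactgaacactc

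Gadd45a promoter: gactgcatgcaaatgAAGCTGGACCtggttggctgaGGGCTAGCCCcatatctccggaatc

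Mdm2 promoter: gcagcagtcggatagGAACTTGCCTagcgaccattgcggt

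Trp53 promoter: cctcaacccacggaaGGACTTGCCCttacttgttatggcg

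The windows of Mdm4, of which there were 2, and those of Phlda3, Sesn2 and Eda2r held neither form. The windows exclude introns, where p53 elements of several of these genes are known to lie, and binding of p53 was not measured in this series.

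Levels are given as TPM, a transcript abundance that divides reads by transcript length and sets every library to the same total, so levels of different genes can be compared. The threshold for detection was a TPM of 1. The deposited columns summed to between 927169 and 929731, sequencing depth is not recoverable from TPM, and the labels give 30000000 planned reads per library. No counting interval or floor can be given. The SD given is the spread between mice and not the error of a single value. Between 14976 and 15108 genes were detected per mouse. The labelled cell type was checked with 6 progenitor genes (Kit, Cd34, Flt3, Mpo, Cebpa and Spi1), with list medians from 135 to 166 TPM. All 6 were detected in every mouse, against 50.7% of all listed symbols. The 4 B cell genes had medians from 0.489 to 1.62 TPM, the 4 T cell genes from 3.99 to 5.16 TPM and the erythroid genes from 6.58 to 17.8 TPM. The neutrophil genes named below had medians of 280, 805 and 2560 TPM in mice 1, 2 and 3. These were above the progenitor medians in every mouse, so the progenitor genes were not the highest list. Kit, whose protein was used for enrichment, stood at 141 ± 8.10 TPM (SD, n = 3). Of the genes of the labelled lesions, Dnmt3a stood at 57.3 ± 6.73 TPM and Flt3 at 137 ± 27.1 TPM, and gene totals do not separate mutant from intact alleles. Trp53 status was not given by the labels, and the table cannot show mutations.

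Trp53 (chr11:69580359-69591873, plus strand, GRCm38) had the highest transcript level of the 10 genes. It stood at 117, 100 and 114 TPM in mice 1, 2 and 3, a mean of 110 ± 8.87 TPM (SD, n = 3), at percentile 91.3 of the 15181 genes whose mean TPM reached 1, called expressed below. The highest mouse was 1.17 times the lowest. The row of the processed pseudogene Trp53-ps was listed at 0 in all 3 mice. On the log2(TPM + 1) scale, used for all spreads below, Trp53 had an SD of 0.12 against a median SD of 0.21 over those 15181 genes. The mice lay close together for this gene, and all 3 leukemias carried an abundant Trp53 transcript.

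The transcripts of the p53 inhibitors followed at similar levels. Mdm2 (chr10:117688875-117710758, minus strand) stood at 67.4, 88.9 and 73.1 TPM in mice 1, 2 and 3, a mean of 76.5 ± 11.2 TPM (SD, n = 3). Mdm4 (chr1:132959484-133030561, minus strand) stood at 74.8, 72.5 and 64.3 TPM, a mean of 70.5 ± 5.51 TPM. Mouse 2 was the highest for Mdm2 and mouse 3 the lowest for Mdm4, and the ranges of the genes overlapped, so their levels did not differ beyond the spread between mice. The ratio of Mdm2 to Mdm4 was 0.901 in mouse 1, 1.23 in mouse 2 and 1.14 in mouse 3, on both sides of equality. Neither range reached that of Trp53: Mdm2 was at 0.577, 0.888 and 0.642 times the Trp53 level in the same mouse, and Mdm4 at 0.640, 0.724 and 0.565 times. A pseudogene copy, Mdm4-ps, was listed at 23.6, 22.0 and 20.8 TPM. How reads were shared between it and Mdm4 is not known, so the Mdm4 level is uncertain.

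**Figure D1:**
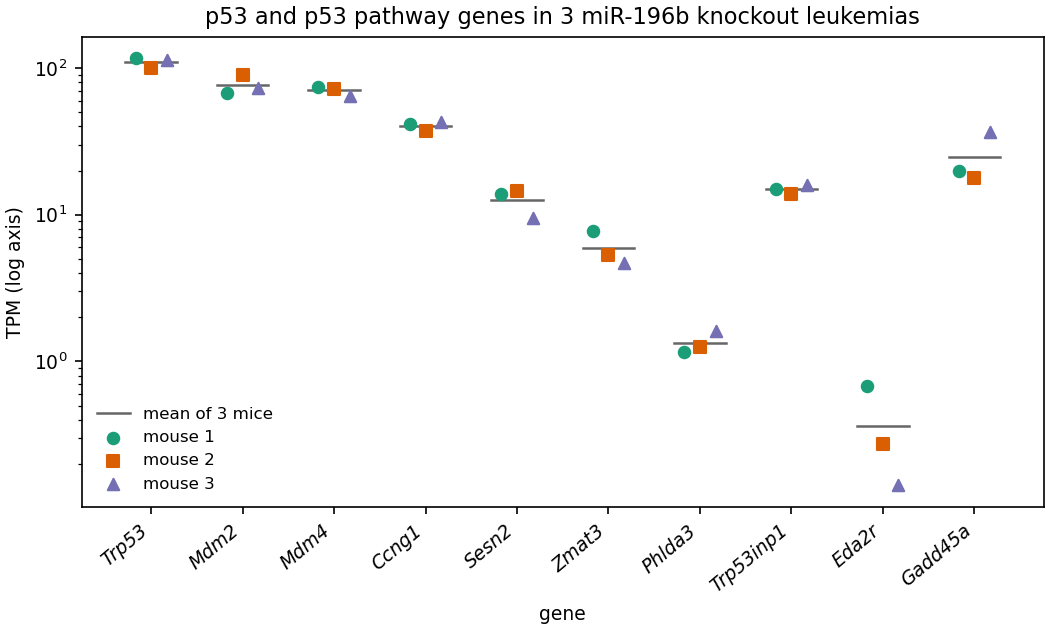
TPM (log axis) of the 10 genes in each of the 3 mice, with a bar at the mean of the 3. Trp53, Mdm2 and Mdm4 lie highest, Phlda3 and Eda2r lowest, and Gadd45a has 1 mouse, mouse 3, set apart from the others.

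The 7 target genes other than Mdm2 spanned a wide range of levels. Their order by mean TPM was Ccng1, Gadd45a, Trp53inp1, Sesn2, Zmat3, Phlda3 and Eda2r. Neighbours in this order did not overlap between mice, except Trp53inp1 and Sesn2. Their summed level was 99.9, 90.4 and 110.9 TPM in mice 1, 2 and 3, and without Gadd45a it was 80.1, 72.5 and 74.4 TPM. The sum was highest in mouse 3 with Gadd45a and in mouse 1 without it, but after scaling to a common upper quartile the sum without Gadd45a was 75.9, 73.3 and 77.8 TPM, with mouse 3 highest by a small margin.

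Ccng1 (chr11:40748552-40755311, minus strand), the gene of cyclin G1, which recruits a phosphatase to Mdm2, was the highest of the targets. It stood at 41.6, 37.3 and 42.6 TPM, a mean of 40.5 ± 2.79 TPM (SD, n = 3). The ratio of Ccng1 to Trp53 was 0.356, 0.373 and 0.374 in mice 1, 2 and 3. The relative SD of this ratio over the 3 mice was 2.73%, against 23.4% for the ratio of Mdm2 to Trp53 and 12.3% for that of Mdm4 to Trp53. For Gadd45a to Trp53 it was 38.1%. These ratios were not set against those of other expressed genes, so a steady ratio to Trp53 cannot be called particular to Ccng1.

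Trp53inp1, whose nuclear protein promotes autophagy and p53 phosphorylation, stood at 15.1, 13.9 and 15.9 TPM, a mean of 14.9 ± 1.01 TPM. Its SD of 0.09 was the smallest of the 9 expressed genes in the values as deposited, and after upper-quartile scaling Mdm4 had the smallest, 0.06. Sesn2, the gene of sestrin 2, a stress sensor that restrains mTORC1 signalling, stood at 13.8, 14.5 and 9.51 TPM. Mice 1 and 2 were close for Sesn2, and mouse 3 was at 0.672 times their mean. Zmat3, the gene of an RNA-binding protein, stood at 7.77, 5.29 and 4.67 TPM. Here mouse 1 was the one apart, at 1.56 times the mean of the others.

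Phlda3 and Eda2r were at the low end. Phlda3, which encodes an inhibitor of AKT signalling, stood at 1.16, 1.26 and 1.61 TPM, just above the detection threshold in all 3 mice and at percentile 4.41 of expressed genes. Ccng1 was 35.7, 29.7 and 26.4 times as high as Phlda3 in the same mouse. Eda2r, the gene of a receptor of the TNF receptor family that binds ectodysplasin A2, stood at 0.676, 0.276 and 0.143 TPM. It was the only 1 of the 10 genes under the threshold, in every mouse, so 9 of 10 were detected in all 3 mice, against 50.7% of all listed symbols. Its highest value was 4.72 times its lowest, but at these levels and with unknown depth the ratio cannot be told from counting error.

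Gadd45a (chr6:67035096-67037457, minus strand), whose protein binds PCNA and cell cycle kinases after DNA damage and which p53-independent stress pathways also induce, varied most. It stood at 19.8, 17.9 and 36.5 TPM in mice 1, 2 and 3, a mean of 24.8 ± 10.3 TPM (SD, n = 3). Mouse 3 was at 1.94 times the mean of the other mice, which were close together. The SD was 0.54, larger than for 92.0% of expressed genes, and without mouse 3 it was 0.10. The exons of an antisense noncoding gene, E230016M11Rik, share 337 of the 1764 exonic bases of Gadd45a in GENCODE M21. That gene was listed at 6.91, 6.60 and 4.37 TPM, with mouse 3 lowest. How reads over the shared bases were assigned is not known, and their part in the Gadd45a values was not tested.

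Genes of other marker lists were also highest in mouse 3, as Gadd45a was. Over all expressed genes 20.3% were highest in mouse 3, and 30.4% after upper-quartile scaling. All 6 neutrophil genes (S100a8, S100a9, Ltf, Ngp, Camp and Mmp8) were highest in mouse 3, with a summed level of 2263, 6057 and 20415 TPM in mice 1, 2 and 3, and none was at 0. They also separated mouse 2 from mouse 1, by 2.68 times in the sum. All 4 erythroid genes with a row were highest in mouse 3 too, with sums of 29.2, 24.1 and 61.4 TPM, and none was at 0. So were all 4 B cell genes, with sums of 2.14, 3.89 and 6.34 TPM, all 4 macrophage genes, with sums of 16.1, 26.5 and 28.9 TPM, and 3 of 4 T cell genes, with sums of 12.99, 17.3 and 17.8 TPM, and none of these was at 0. The erythroid order of mice was that of Gadd45a, with mouse 2 lowest. Ccng1, Trp53inp1 and some macrophage genes shared this order, and its share over all genes was not computed. The progenitor gene Mpo had this order too, at 1081, 864 and 1632 TPM, and was the 1 of 6 progenitor genes highest in mouse 3. The part of these cells in the Gadd45a values was not tested, and in bulk RNA fewer cells of a type and less RNA per cell cannot be told apart.

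Spread between mice was compared with that of all expressed genes. Among the 9 expressed genes, no pair of mice was 2-fold apart on the log2(TPM + 1) scale for any gene, where 4.64% of all genes were between mice 1 and 2, 5.38% between mice 1 and 3, and 2.9% between mice 2 and 3. For any pair the background was 8.57%, so a count of 0 among 9 genes is near it. Gadd45a was just inside that limit at 0.99 log2 units between its highest and lowest mouse, and it passed the limit after scaling to a common upper quartile and with a pseudocount of 0.1. In those settings 8.61% and 13.1% of all genes passed it, so 1 of 9 is near the background. The median SD of the 9 genes was 0.14, beside 0.21 over all genes. After upper-quartile scaling the medians were 0.18 and 0.19, so the members' spread was near the background. The SD was above the background median for Sesn2, Zmat3 and Gadd45a and below it for the other 6, of which Mdm2 was only just below (0.203 against 0.208). After the same scaling Mdm2 was above it (0.243 against 0.194).

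**Figure D2:**
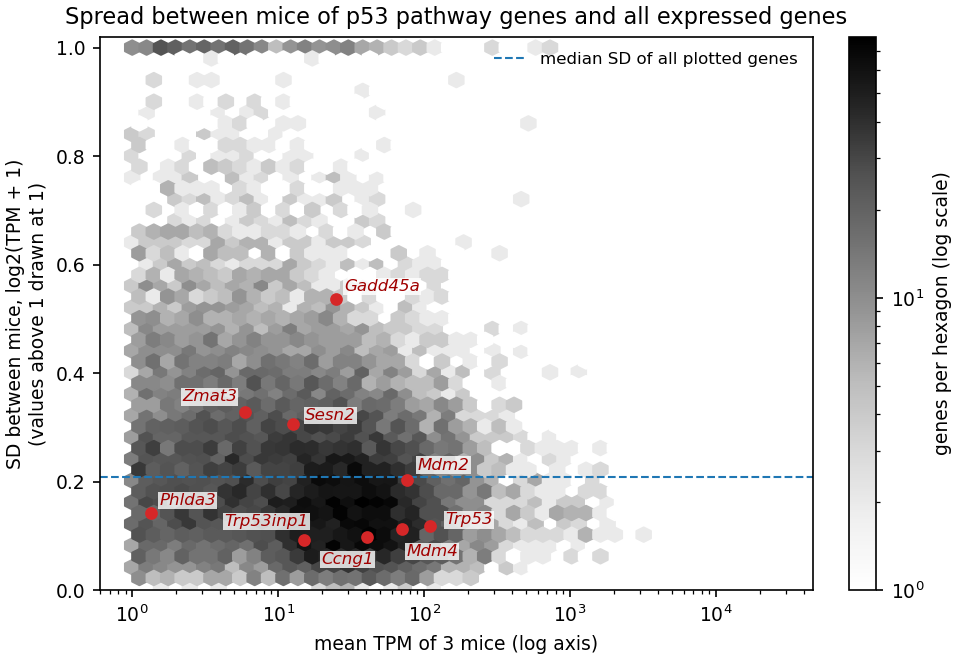
SD of log2(TPM + 1) over 3 mice against mean TPM (log axis) for 15181 genes, as shaded hexagons, with the 9 expressed pathway genes as red points and the median SD of all genes, 0.21, as a dashed line. Gadd45a, Zmat3 and Sesn2 lie above the line and the other 6 below it.

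The genes did not share 1 order of mice. Trp53, Mdm4 and Zmat3 were highest in mouse 1 (3 of 9, background 48.6%), Mdm2 and Sesn2 in mouse 2 (2 of 9, background 31.1%), and Ccng1, Phlda3, Trp53inp1 and Gadd45a in mouse 3 (4 of 9, background 20.3%). After scaling to a common upper quartile, Trp53 was highest in mouse 3 and Mdm4 in mouse 2, which left 1, 3 and 5 of 9 in mice 1, 2 and 3 against backgrounds of 35.6%, 33.9% and 30.4%. Trp53, Ccng1, Trp53inp1 and Gadd45a were all lowest in mouse 2, where Mdm2 and Sesn2 were highest, under both scalings. The share of all genes lowest in mouse 2 was not computed.

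Other genes of the pathway were read from lists of known regulators and targets. For comparison, 50.7% of all listed symbols were detected in every mouse. The median over expressed genes of the mean TPM was 17.5. Of 20 regulators of p53, 19 were detected in every mouse, and the list median was 29.2, 28.6 and 28.0 TPM in mice 1, 2 and 3. Npm1, the gene of the nucleolar protein nucleophosmin, was the highest at 1235, 871 and 984 TPM, and Usp7, a deubiquitinase that stabilizes Mdm2 and p53, followed at 259, 253 and 230 TPM. The lowest was Cdkn2a, which encodes p16INK4a and p19ARF, an inhibitor of Mdm2. It was listed at 0.282, 0.408 and 0.0869 TPM and was the 1 regulator under the threshold. Ppp1r13l, which encodes the p53 inhibitor iASPP, varied most, at 8.34, 4.55 and 8.68 TPM, with mouse 2 low. The median SD of the list was 0.11.

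Of 10 arrest genes, 9 had a row, and the 8 expressed ones had a median SD of 0.40, beside 0.21 over all genes. The apoptosis genes had one of 0.21 and the repair and metabolism genes one of 0.19. Cdkn1a, the gene of the CDK inhibitor p21 and the main arrest target of p53, stood at 46.1, 42.7 and 30.0 TPM, with mouse 3 low, where Gadd45a was high. Btg2, an antiproliferative gene that growth signals also induce, was the highest at 196, 379 and 305 TPM. Rprm was listed at 0 in all 3 mice, and Ptprv had no row under its symbol or its older one. Trp53i11 varied most, at 14.8, 7.22 and 7.48 TPM, with mouse 1 high. All 6 stress genes (Fos, Jun, Egr1, Ier2, Hspa1a and Hspa1b) were lowest in mouse 1, as Btg2 was, with sums of 1123, 4070 and 3608 TPM. None of them was at 0. The share of all genes lowest in mouse 1 was not computed, and the part of the stress genes in the values was not tested.

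All 12 apoptosis genes with a row, of 13 listed, were detected in every mouse (50.7% of all symbols), with list medians of 43.8, 32.8 and 34.7 TPM. Pmaip1, the gene of the BH3-only protein Noxa, was the highest at 156, 254 and 138 TPM, with mouse 2 apart. Bax, which encodes a pore-forming BCL2 family protein, differed little, at 82.2, 80.3 and 73.8 TPM. Bbc3, the gene of the BH3-only protein Puma, stood at 54.2, 48.1 and 35.1 TPM, lowest in mouse 3 as Cdkn1a was. Fas, a death receptor, was the lowest of the list at 2.60, 2.81 and 2.24 TPM. Perp, which encodes a membrane protein of cell junctions, varied most, at 13.5, 3.46 and 2.38 TPM, and mouse 1 was at 4.63 times the mean of the others.

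All 16 genes of repair and metabolism were detected in every mouse (50.7% of all symbols), with list medians of 18.9, 14.1 and 15.5 TPM. Rps27l, a ribosomal protein gene that p53 induces, was the highest at 234, 235 and 292 TPM. Ddit4, an inhibitor of mTORC1 that hypoxia and glucocorticoids also induce, was next and varied most, at 103, 23.4 and 16.4 TPM. Mouse 1 was at 5.19 times the mean of the others for Ddit4. Gls2, a mitochondrial glutaminase, was the lowest at 1.06, 1.18 and 1.77 TPM. In this list 11 of 16 genes were highest in mouse 1, against a background of 48.6%, and 8 of 16 after upper-quartile scaling, against 35.6%. The p53 relatives were not detected: Trp63 was listed at 0, 0.0152 and 0 TPM and Trp73 at 0 in all 3 mice.

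**Figure D3:**
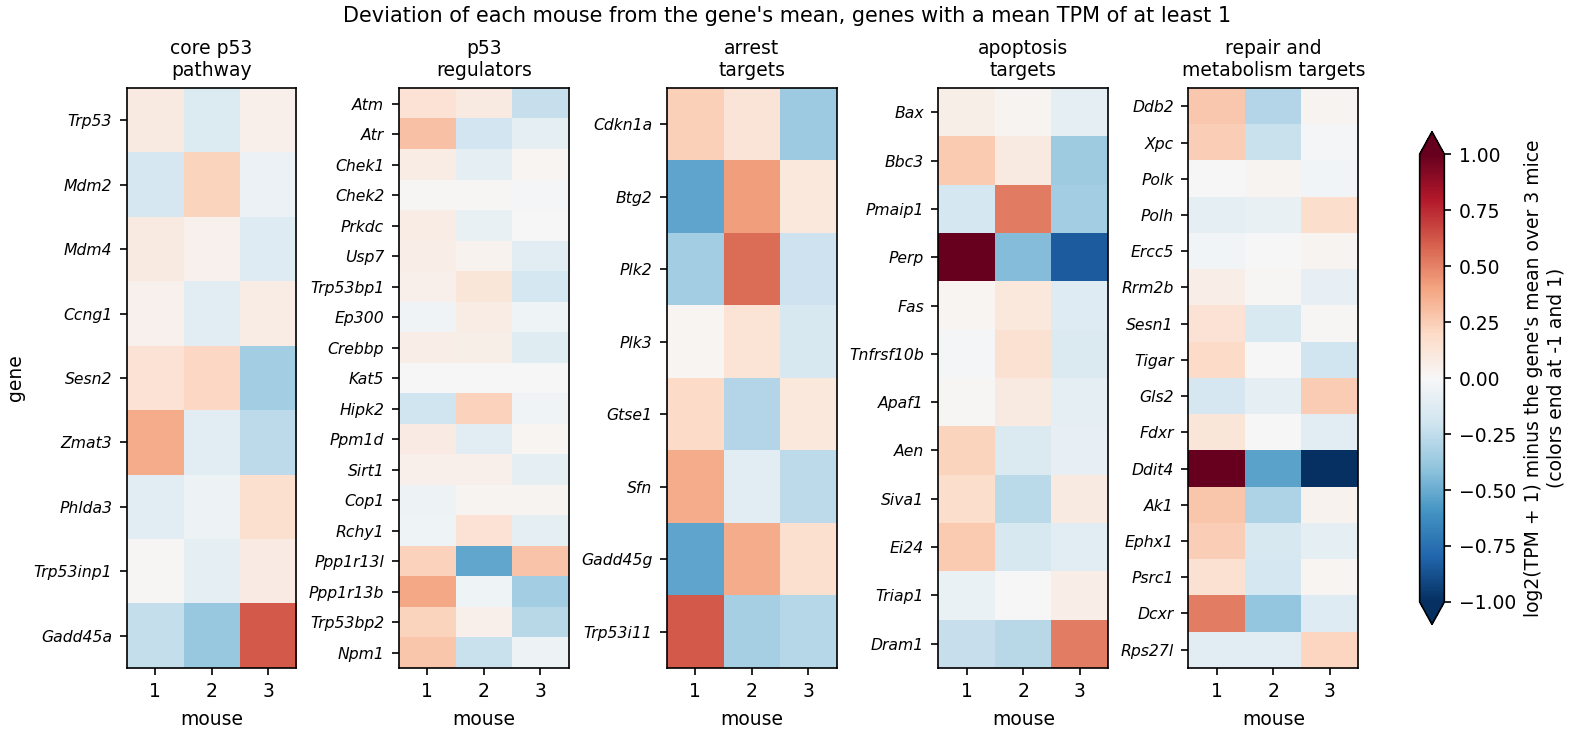
Deviation of each mouse from the mean of the 3, in log2(TPM + 1), for every gene of the 5 groups with a mean TPM of 1 or more; red is higher and blue lower, and colors end at -1 and 1. Perp and Ddit4 stand out in mouse 1. Smaller deviations include Gadd45a in mouse 3, Trp53i11 in mouse 1 and Plk2 in mouse 2, while most regulators are pale.

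Of the 55 other expressed pathway genes, 2 genes (3.64%) were at least 2-fold apart between any mice, Perp and Ddit4, against the background of 8.57%. After upper-quartile scaling Btg2 joined them, with mouse 1 lowest, which made 5.45% against a background of 8.61%. Perp and Ddit4 had mouse 1 highest and mouse 3 lowest under both scalings, and so did Zmat3, Cdkn1a and Bbc3, while Gadd45a had mouse 3 highest and mouse 2 lowest. The highest mouse therefore was not the same for all targets, and for Trp53 the mice were within 1.17 times of each other.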

How the data were processed

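The authors' deposited values, in 1 table with a row per gene symbol, were used as TPM, abundances per transcript length that the authors had set to a like total in every mouse. The table's name gives log2 FPKM instead, but the values were linear with near-equal column sums. The submitters' processing notes name kallisto and mm10. Versions, the annotation and any filter are not given in the sources used here. One protocol names ribosomal RNA depletion and another an mRNA kit, with 150 nt paired reads and a RIN above 8.0.

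Of 28987 rows, 795 without a symbol and 27 with a date as symbol were left out (0.734% to 0.787% of each column sum), and the rows of 90 repeated symbols were summed. Another 3 per-sample columns, from a different series, were not used. Mice were numbered in accession order. Spread is the SD of log2(TPM + 1) over 3 mice, compared over genes whose mean TPM reached 1. That scale understates changes of low genes. With 1 group there was no test. The design had allowed for FPKM or TPM.

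The 10 genes, the lists and the thresholds were chosen with earlier results of these data known. Named genes are the 10, the 2 highest, the lowest and the widest of each wider list, the labelled lesions with Kit, and Cdkn1a, Pmaip1, Bbc3, Bax and Cdkn2a. Hoxa7, Hoxa9, Hoxb8, Hoxc8, Mdm4-ps, Trp53-ps, E230016M11Rik and the promoter motif were added later. Macrophage genes, also listed, had medians of 1.43, 2.41 and 3.33 TPM. The scripts were tested on simulated data. Alternatives covered the pseudocount, filters, thresholds, upper-quartile scaling, repeated symbols and each mouse left out. Python 3.11.15, numpy 2.4.6, pandas 2.3.3 and matplotlib 3.10.9 were used.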

Additional observations from a re-analysis of the deposited data

How the results depend on the processing

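No paired analysis was possible because the labels define only 1 group. The median level of the 10 genes held within its spread under every alternative run. The number detected was 9 in every mouse, 10 at a threshold of 0.1 and a mean of 7.67 at a threshold of 5. Their median SD moved from 0.142 to 0.206 with a pseudocount of 0.1 (all genes 0.230), to 0.173 over all listed genes (all genes 0.134, so the order turns) and to 0.181 after upper-quartile scaling (all genes 0.194). It ranged from 0.101 (without mouse 3) to 0.152 when a mouse was left out. The number of genes 2-fold apart between any mice rose from 0 to 1, Gadd45a, with a pseudocount of 0.1 and with that scaling. It was 0 with any mouse left out. Of all genes, 13.1% were 2-fold apart with that pseudocount and 8.61% with the scaling. Without mouse 1, 2 or 3 the shares were 2.96%, 5.52% and 4.67%. Counts of 0 or 1 among 9 genes are near these shares. A limit of 1.5-fold gave 2, Zmat3 and Gadd45a, against 27.2% of all genes. The number highest in mouse 1 fell from 3 to 1 with the scaling, which shifts mice 1, 2 and 3 by -0.08, 0.02 and 0.07 log2 units. The share of all expressed genes highest in mouse 1 fell too, from 48.6% to 35.6%. Of 50 recomputed gene levels, 48 stayed within 1 SD of the mice, and those of Phlda3 and Eda2r moved with the pseudocount. Order counts of the wider lists under scaling were added after seeing the data. Of these 15 counts, 4 moved by more than 1.5 times. Of 19 expressed regulators, those highest in mouse 1 went from 10 to 4 and in mouse 3 from 2 to 7. Of 8 expressed arrest genes, those highest in mouse 3 went from 0 to 1. Of 16 repair and metabolism genes, those highest in mouse 2 went from 1 to 2. The shares of all expressed genes moved in the same directions, in mouse 2 from 31.1% to 33.9% and in mouse 3 from 20.3% to 30.4%. Without a depth, no counting error can be given for the low values of Phlda3 and Eda2r.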
